A study of Mus musculus with 321 samples.

Results

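The regions described here are 2617 binding summits of the transcription factor Tcf-1 that lay in fibroblast chromatin carrying H3K9me3, a histone mark of repressed chromatin. They were taken from a deposited list of 40562 single-base Tcf-1 summits and made up 6.45% of it. A summit was included if it lay in H3K9me3 islands (broad enriched regions called with SICER) of both replicates, and was left out if it also lay in H3K27me3 islands of both replicates, which removed 90 summits. They are called H3K9me3 summits below, and were thus chosen by the island calls and the summit list, that is, by measured values. A pair of comparison sets came from the same list. The unmarked summits were the 36051 that lay in islands of both replicates for neither mark, and the H3K27me3 summits were the 1804 in H3K27me3 islands of both replicates and not in H3K9me3 islands of both. Membership rests on the Tcf-1 and H3K9me3 libraries, so binding scores and island values of the H3K9me3 summits are given as description. They also served to sort summits for tests of ATAC-seq peaks. The ATAC-seq libraries took no part in the choice.

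H3K9me3 is deposited on nucleosomes of constitutive heterochromatin, at transposable elements, imprinted loci and zinc finger gene clusters, where it is bound by HP1 proteins. Most transcription factors are found at few sites in such chromatin. Tcf-1, encoded by Tcf7, is an HMG-box factor that binds DNA at short TCF motifs, acts with beta-catenin at Wnt target genes, and is needed for normal T cell development in the thymus. Fibroblasts are not of the T lineage.

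Chromatin accessibility was assayed by ATAC-seq in NIH3T3, an established mouse fibroblast line (strain NIH/Swiss, passages 8-12), after transduction with an empty retrovirus (Empty RV, 4 libraries) or a retrovirus carrying Tcf-1 (Tcf-1 RV, 4 libraries). The histone libraries were made from NIH3T3 with no virus named, 2 for each mark, and the Tcf-1 summits came from 1 pooled list for Tcf-1 RV cells (antibody C46C7). The same assay was run on FACS-purified CD4+CD8+ thymocytes (double-positive, DP) of genotype C56BL/6 (WT), as the labels spell it, or TCF-1-/- deltaVII (KO), with 2 libraries each. Ages were not given, and the histone libraries of Tcf-1 RV cells were not analysed here. The islands used were taken as those of fibroblasts without added Tcf-1, which the labels do not state, and no islands of DP thymocytes were used. File-name tags put NIH3T3 ATAC-seq replicates 1 and 2 on day 2 and replicates 3 and 4 on day 4, and gave the Tcf-1 list day 2. Nothing in the labels says that replicates were separate cultures or animals. Each p-value thus measures the spread between these libraries, which may be technical. The same summits were counted in every library, so no p-value covers counting error over summits.

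A summit was counted as open in a library if a peak of that library covered the summit base, and as closed if none did, which says only that no peak was called there. In bulk libraries such as these, a site open in fewer cells and a site less open in every cell cannot be told apart. The peak lists held 22778 to 58026 peaks in Empty RV, 36583 to 62639 in Tcf-1 RV, 23249 and 30985 in DP WT, and 11171 and 12209 in DP KO. Read depth is unknown for these lists. Fibroblast marker genes had a peak within 1 kb of a gene end for 1, 5, 6 and 6 of 7 genes in Empty RV replicates 1 to 4 and 5 to 6 of 7 with Tcf-1. Empty RV replicate 1, with 1 marker, also had the shortest list of the 8 and lies in the pair with the largest difference between arms. DP thymocyte markers had one for 5 to 7 of 7 genes in WT, 1 to 4 of 7 in KO and none of 7 in NIH3T3. B cell markers had one for 1 of 6 genes in NIH3T3 and WT and none in KO, and myeloid markers for 1 to 3 of 6 in NIH3T3, up to 1 in WT and none in KO. Tcf7 itself held 1 to 5 peaks in Empty RV, 5 to 8 in Tcf-1 RV, 2 in each WT and 1 in each KO library. Reads of the retroviral copy could map to its exons, and peak positions do not check the deletion in KO. It held no H3K9me3 summit.

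Sequence was at hand for the H3K9me3 summits in the 300-base promoter windows of RefSeq (GRCm38.p6), which reach from 250 bases before to 50 after a transcription start. There were 21 such summits in 22 windows. The 40 bases to each side of the summit are shown for 6 of them, to set strongly bound, motif-bearing and always open promoters side by side. Capitals mark CTTTGA, the core of the TCF motif, searched on both strands (TCAAAG on the other), with no other motif searched.
Fam50b (chr13:34734766-34734846, plus strand): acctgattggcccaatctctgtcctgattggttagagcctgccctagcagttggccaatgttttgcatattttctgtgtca
Rrn3 (chr16:13780507-13780587, plus strand): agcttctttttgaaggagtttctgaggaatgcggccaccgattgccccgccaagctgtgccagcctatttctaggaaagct
Zfp775 (chr6:48601907-48601987, plus strand): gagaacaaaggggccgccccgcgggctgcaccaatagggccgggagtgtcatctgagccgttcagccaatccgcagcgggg
Zfp868 (chr8:69625226-69625306, minus strand): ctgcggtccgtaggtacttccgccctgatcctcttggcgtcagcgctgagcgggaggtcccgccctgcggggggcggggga
LOC108168800 (chr2:144101555-144101635, minus strand): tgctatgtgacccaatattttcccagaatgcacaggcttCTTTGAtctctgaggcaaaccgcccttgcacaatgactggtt
Gm46030 (chr8:11340257-11340337, minus strand): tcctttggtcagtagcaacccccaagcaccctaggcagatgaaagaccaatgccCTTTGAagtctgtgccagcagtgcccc
Fam50b had the highest score of the 6, 71.3, and was open in 1 Tcf-1 RV library and in no other. Rrn3, which encodes an initiation factor of RNA polymerase I, scored 54.4 and was open in all 8 NIH3T3 libraries, both WT and 1 KO library. The zinc finger genes Zfp775 (14) and Zfp868 (11.3) were open in all 12 libraries. LOC108168800 (8.04), with a motif centred 1.5 bases from the summit, and Gm46030 (17.9), with one centred 16.5 bases away, were open in none. The hexamer was present in 6 of the 22 windows (27.3%), in 20.6% of the 1752 windows holding any Tcf-1 summit and in 16% of all 32851 windows. LOC108168800 has overlapping windows that share its summit and hexamer, so it counts more than once among the 6 and the 22. The shares were not tested. Fam50b, Adcy7 and Gm40261 had the other windows with a hexamer, centred 172.5, 46.5 and 64.5 bases from the summit. Adcy7 was open in 3 libraries of Empty RV and all 4 of Tcf-1 RV. Gm40261 was open in 3 of Empty RV and 1 of Tcf-1 RV. Windows with a hexamer were thus both open and closed, unlike the motif-bearing examples printed above, and a link to openness was not tested. The match is a description of letters and not a measured binding site.

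The H3K9me3 summits were spread thinly over long islands. The 2 replicates had 24147 and 26988 H3K9me3 islands, which overlapped in 24786 segments covering 347.8 Mb, and 1955 segments (7.89%) held a summit. Of these, 1496 held a single summit. A median summit lay 2350 bp from the nearest edge of its segment (3 to 202292 bp), in a segment of 10.0 kb. The authors' ratio of ChIP over control reads was modest at the islands concerned, with medians of 2.14 and 2.07 in the replicates against 2.14 and 2.09 over all H3K9me3 islands. It was under 2 for 42.5% and 44.3% of the summits. A further 1947 summits with an H3K9me3 island in 1 replicate only were counted as unmarked, and 86 H3K9me3 summits lay in an H3K27me3 island of 1 replicate. Every autosome held such summits. Chromosome 17 had the highest share of its summits among them (11.5% of 1679), and chromosome X had 2 of 554. The segments covered 23.3 Mb of chromosome 17 and 0.903 Mb of chromosome X, and the shares were not adjusted for this.

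Most H3K9me3 summits lay away from gene ends and from promoters. Of the 2617, 945 (36.1%) lay inside a gene, 916 (35%) outside genes but within 50 kb of one, and 756 (28.9%) had no gene within 50 kb. The unmarked summits lay inside genes in 52.2% of cases and had no gene within 50 kb in 19.4%. Only 55 H3K9me3 summits (2.10%, 95% Wilson interval 1.62 to 2.73) lay within 1 kb of a gene end, against 9.63% of the unmarked (9.33 to 9.94) and 2.88% of the H3K27me3 summits (2.2 to 3.76). These intervals cover counting error only, and neighbouring summits are not independent. A summit was assigned to every gene around it, or else to the nearest gene within 50 kb.

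By that assignment 1168 genes held an H3K9me3 summit, among them 1167 of 21883 protein-coding genes (5.33%). For 785 of them it was a single summit, and 34 genes held 5 or more. Wwox, a very large gene for a WW-domain oxidoreductase, held 12 of its 18 Tcf-1 summits in H3K9me3, spread over 7 segments, with scores of 1.8 to 66.98. Galnt17, of the family that starts O-linked glycosylation, held 10 of 11. Ptprm (a receptor tyrosine phosphatase), Lpar1 (a receptor for lysophosphatidic acid) and Pakap held 8 each. Fhl2 (a LIM-domain protein), Gipc2, Adamts2 (which trims procollagen), Dlgap2 (a postsynaptic scaffold) and Tspan11 (a tetraspanin) held 7 each, and 9 further genes held 6, including Cacna1c, Trpm3, Gria1 and Syn3, which encode ion channels, a glutamate receptor and a synapsin. These genes were mostly long, with 913.1 kb for Wwox, 433.2 kb for Galnt17 and 65.5 kb for Tspan11, and length was not adjusted for.

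Scores were close to those of other summits. The deposited score, on a scale the authors do not state, had a median of 18 at H3K9me3 summits (quartiles 10.1 and 37.0, range 0.142 to 249.3), 17 at unmarked summits (9.86 and 33.4) and 14.1 at H3K27me3 summits (9.30 and 24.8). The 290 H3K9me3 summits under 500 bp inside a segment's edge had a median score of 16.3, and the 423 unmarked summits under 500 bp outside one had 18.6. Of those inside the edge, 20.8% ± 6.83 were open in Empty RV and 34.5% ± 6.63 in Tcf-1 RV, against 27.2% ± 9.55 and 41.1% ± 7.6 of those outside (SD, n = 4), with open as defined above.

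The highest score, 249.3, fell at chr12:8077515, with no gene within 50 kb. It had no peak in any Empty RV library and peaks of 0.449, 0.410, 0.336 and 0.487 kb in Tcf-1 RV replicates 1 to 4. Next came a summit 11338 bp from Ets2, which encodes an ETS-family factor (242.5, chr16:95732387). It was open in Empty RV replicates 3 and 4 only, with peaks of 0.215 and 0.249 kb, and in all 4 Tcf-1 RV libraries, with peaks of 0.507 to 0.635 kb. A summit at chr19:56091878 (227.8) and one inside Srgap1, a GTPase-activating protein of Slit signalling (198.9), were open in all 8 NIH3T3 libraries. So were those at Foxp1 (188.8), a forkhead factor, and Ranbp6 (188.6). The summit 6294 bp from Col3a1, the chain of collagen III (225.2), was open in 2 libraries of Empty RV and 3 of Tcf-1 RV. That 16890 bp from Mrtfa, a coactivator of serum response factor (220.2), was open in Tcf-1 RV replicate 1 alone. Mtap (195.3) was open in 3 libraries of Empty RV and all 4 of Tcf-1 RV, and Slc39a11, a zinc transporter (193.5), in Tcf-1 RV replicates 1 and 2. None of these 10 was open in a DP library, as was the case for 97.4% of H3K9me3 summits and 92.4% of all summits. High-scoring summits thus ranged from open in every fibroblast library to open in almost none.

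**Figure D1:**
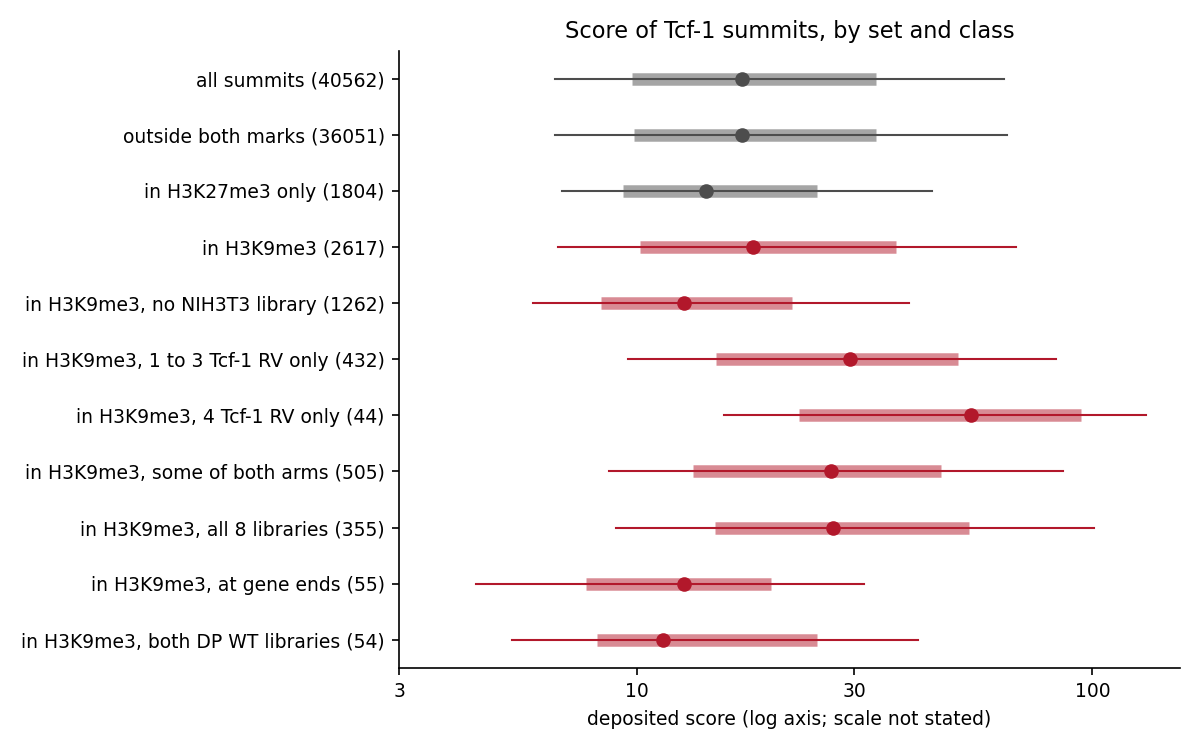
Deposited Tcf-1 scores (log axis) by summit set and, within the H3K9me3 summits, by ATAC-seq class, with the number of summits in brackets. Points are medians, thick bars the quartiles and thin lines the 10th to 90th percentiles. H3K9me3 summits open in 4 Tcf-1 RV and no Empty RV libraries have the highest median, 54.1, and those open in no NIH3T3 library have 12.7.

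In fibroblasts with the empty virus, Tcf-1 summits in H3K9me3 were already open nearly as often as other summits. The share of the 2617 that was open was 15.7%, 21.4%, 26.9% and 31.9% in Empty RV replicates 1 to 4 (24% ± 7.01, SD, n = 4). It was 41.4%, 37.3%, 27.4% and 42.8% in Tcf-1 RV replicates 1 to 4 (37.2% ± 6.94, n = 4). Tcf-1 RV replicate 3, the lowest of its arm, fell below Empty RV replicate 4, so the arms overlapped. Unmarked summits were open at 27.2% ± 7.64 and 40.9% ± 6.97, and H3K27me3 summits at 2.31% ± 1.80 and 12.9% ± 5.54 (n = 4 each).

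Within every NIH3T3 library, H3K9me3 summits were a little less often open than unmarked summits and far more often open than H3K27me3 summits. The gap to unmarked summits was -3.44 percentage points (from -3.99 to -2.06, lower in 8 of 8 libraries, exact two-sided sign-flip permutation over 8 libraries, p = 0.00781, the smallest possible, adjusted p = 0.0234 over 6 tests). It narrowed to -1.19 points among summits over 1 kb from a gene end and to -1.30 points among summits above the median score of the whole list. The gap to H3K27me3 summits was +23 points (15.1 to 27.3, higher in 8 of 8, exact p = 0.00781, adjusted p = 0.0234). In Empty RV libraries, 10 to 83 of the 1804 H3K27me3 summits were open, against 410 to 835 of the 2617 in H3K9me3.

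The difference between the arms did not pass. H3K9me3 summits were open 13.3 points more often in Tcf-1 RV than in Empty RV (exact two-sided permutation of 4 against 4 libraries, p = 0.0571, adjusted p = 0.114), and the value was positive in 4 of 4 same-numbered pairs (25.8, 15.9, 0.497 and 10.9 points). List length moves with it. The Tcf-1 RV list was the longer in pairs 1, 2 and 4 and the shorter in pair 3 (36583 against 46819 peaks), the pair with the smallest difference. With the 22778 widest peaks of each library the difference was 6.21 points, with an unadjusted exact p of 0.0286. It was 20.8 points on day 2 and 5.69 points on day 4, where 2 libraries against 2 allow no p under 0.33. At unmarked summits the same pairs differed by 27.7, 16.1, 0.166 and 10.6 points. The gap between the sets changed by -0.373 points from Empty RV to Tcf-1 RV (exact p = 0.543, adjusted p = 0.543), and its sign turned on day 4 (+0.296) and without Empty RV replicate 1 (+0.0253). No difference in the response to Tcf-1 between H3K9me3 and unmarked summits was detectable with these libraries.

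**Figure D2:**
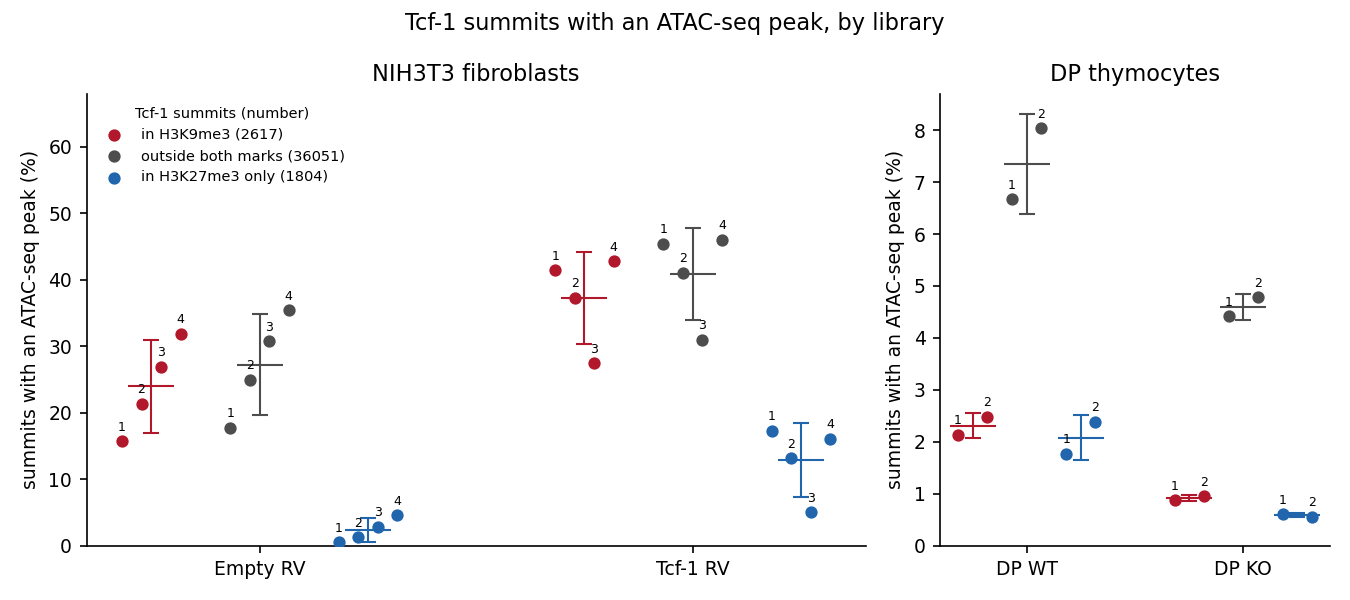
Percentage of Tcf-1 summits covered by an ATAC-seq peak in each NIH3T3 (left) and DP thymocyte (right) library, with separate vertical scales. Points are libraries numbered by replicate, and bars are the mean and SD of each group. H3K9me3 summits reach 15.7% to 42.8% in NIH3T3 and stay below unmarked summits in every library.

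Openness rose with the Tcf-1 score. The summits were divided into 4 bins of equal size by score. In the lowest bin (0.142 to 10.1, 655 summits) the open share was 13.2% ± 4.28 in Empty RV and 16.3% ± 4.10 in Tcf-1 RV, and in the highest bin (37.1 to 249.3, 654 summits) it was 35.4% ± 10.4 and 61.5% ± 10.1 (SD, n = 4). The highest bin exceeded the lowest by 33.7 points (14.7 to 52.3, 8 of 8 libraries, exact sign-flip p = 0.00781, adjusted p = 0.0381 over 8 tests of bins). This difference was 14.7 to 28.9 points in the 4 Empty RV libraries and 35.6 to 52.3 points in the 4 Tcf-1 RV libraries, without overlap. The arms differed by 22.9 points (exact permutation p = 0.0286, the smallest for 4 against 4, adjusted p = 0.0381). As a ratio of the bins it was 2.58 to 2.80 in Empty RV and 3.16 to 4.2 in Tcf-1 RV. With same-numbered libraries paired, the smallest p that 4 pairs allow, 0.125, was reached. Without Empty RV replicate 1 the p was 0.0571, and the arms differed by 32.2 points on day 2 and 13.5 points on day 4. Openness rose with score in the other sets too. From the lowest to the highest score range, unmarked summits went from 19.9% to 36.3% in Empty RV and from 25.6% to 62.5% in Tcf-1 RV. H3K27me3 summits went from 1.43% to 4.03% and from 5.03% to 35.7%. The rise was thus not particular to H3K9me3 summits.

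**Figure D3:**
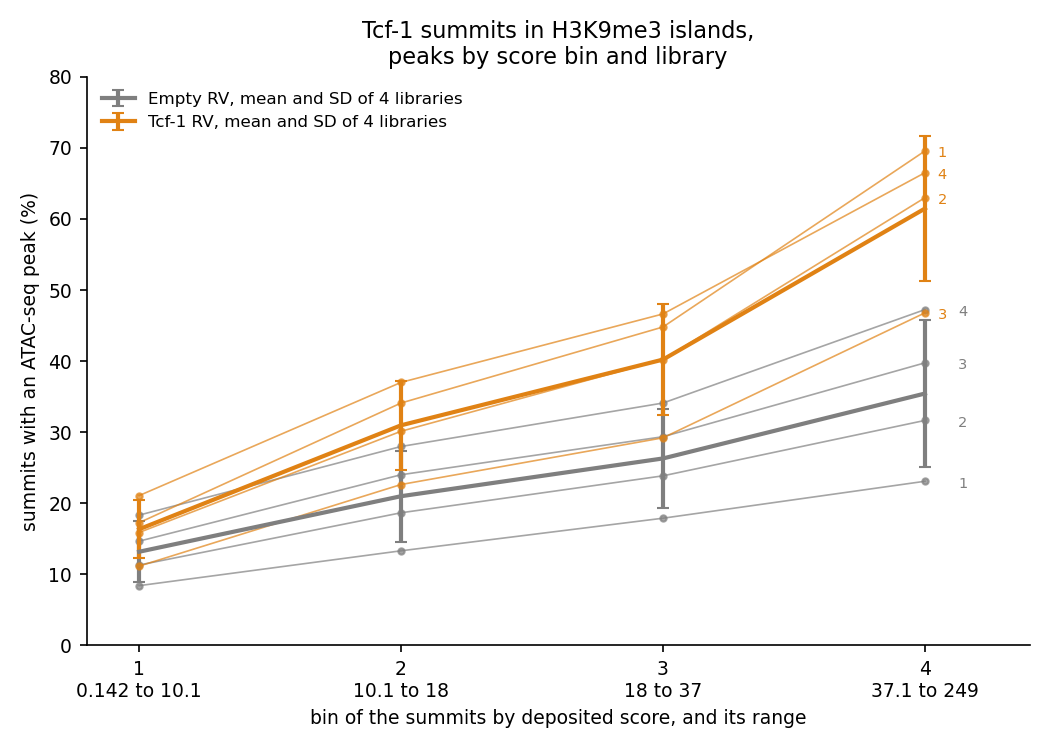
Percentage of H3K9me3 summits covered by an ATAC-seq peak in 4 bins by deposited score, for each NIH3T3 library. Thin lines are libraries numbered by replicate, and thick lines are the mean and SD of 4 libraries. The means reach 35.4% in Empty RV and 61.5% in Tcf-1 RV in the highest bin, from 13.2% and 16.3% in the lowest.

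The gap to unmarked summits was widest at low scores. Within the same 4 score ranges, with tied scores kept together, H3K9me3 summits were less often open than unmarked summits, by differences of -7.84, -4.58, -2.88 and -0.927 points, from the lowest scores to the highest. The first 3 differences held in 8 of 8 libraries (exact sign-flip adjusted p = 0.0125 each over 8 tests) and the last in 7 of 8 (adjusted p = 0.0357). Gene ends move with this gap. They held 13.5% of the unmarked and 3.59% of the H3K9me3 summits in the lowest range, and 3.88% and 0.765% in the highest. Away from gene ends the 4 differences were -3.95, -0.744, -1.04 and -0.771 points, and the last did not pass (adjusted p = 0.0547). With equal numbers of peaks the gap in the highest range was +0.801 points.

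Openness differed little with the fold of the island, and more with its length and the distance to its edge, where the middle bins were highest. Between the lowest and highest of 4 bins by island fold (medians 1.44 and 2.98, taking the lower of the 2 replicates), it rose by 1.25 points (7 of 8 libraries, exact sign-flip adjusted p = 0.0381), a value that did not pass with equal numbers of peaks (0.642 points, p = 0.227). By segment length the open share in the 4 bins, from the shortest, was 19.7%, 27.7%, 26.3% and 22.1% in Empty RV and 34.5%, 42.6%, 39.4% and 32.4% in Tcf-1 RV. By edge distance, from the nearest, it was 20%, 24.04%, 28.5% and 23.4% in Empty RV and 33.1%, 38.5%, 43.3% and 34% in Tcf-1 RV. The tests compared the end bins alone, and the rise to the middle bins was not tested. Counting error over the summits of a bin is not covered by them, so small differences between bins are weak evidence. Between the shortest and longest segments (medians 4400 and 24000 bp) the open share changed by 0.137 points (exact sign-flip adjusted p = 0.906), or 2.36 points with equal numbers of peaks (unadjusted p = 0.0313). Between summits nearest to and farthest from a segment edge (medians 583 and 6906 bp) it rose by 2.10 points (7 of 8 libraries, adjusted p = 0.0381). The value for segment length averages libraries of opposite sign, since it was 2.92, 4, 1.87 and 0.959 points in Empty RV replicates 1 to 4 and -4.37, -1.17, 0.189 and -3.30 points in Tcf-1 RV. For segment length and edge distance the arms differed by -4.6 and -2.5 points, Tcf-1 RV minus Empty RV (exact permutation adjusted p = 0.0381 each), and neither passed without any 1 of the Empty RV libraries (p = 0.0571).

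Single summits were then followed through the 8 fibroblast libraries. Of the 2617, 1262 (48.2%, against 46.5% of all summits) were open in none, and 355 (13.6%, against 15.1%) in all 8. In 44 (1.68%) a peak was present in all 4 Tcf-1 RV and no Empty RV libraries. The share among all 40562 summits was 1.85%, so the count is close to the background. Among summits with no Empty RV peak the share was 2.87% in the whole list. The opposite pattern, open in all 4 Empty RV and no Tcf-1 RV libraries, had no H3K9me3 summit and 1 summit of the whole list (0.00247%). A further 432 (16.5%, against 16.2%) had no Empty RV and 1 to 3 Tcf-1 RV peaks, and 19 (0.726%, against 0.819%) the reverse. More Tcf-1 RV than Empty RV libraries were open at 808 (30.9%, against 31.9%) and fewer at 79 (3.02%, against 2.75%). For the 44, Fisher's exact p over the libraries was 0.0286 each, the smallest that 4 against 4 libraries allow, and 1 after adjustment over all summits. The test therefore tells nothing of single summits. An unadjusted p under 0.05 was found for 753 summits, 44 of them in H3K9me3.

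The share of such gained summits depended on how many libraries the rule asked for, and leaving some out can only keep or raise it. The share was 5.62% without Tcf-1 RV replicate 3 and 2.83% without Empty RV replicate 4. It was 14.4% with the day 2 libraries alone and 2.87% with those of day 4. In same-numbered pairs, 7.45% were open in the Tcf-1 RV library alone in at least 3 of 4 pairs and in the Empty RV library alone in none. The share over all summits was not computed under these looser rules. They are therefore not read as a result about H3K9me3 summits.

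**Figure D4:**
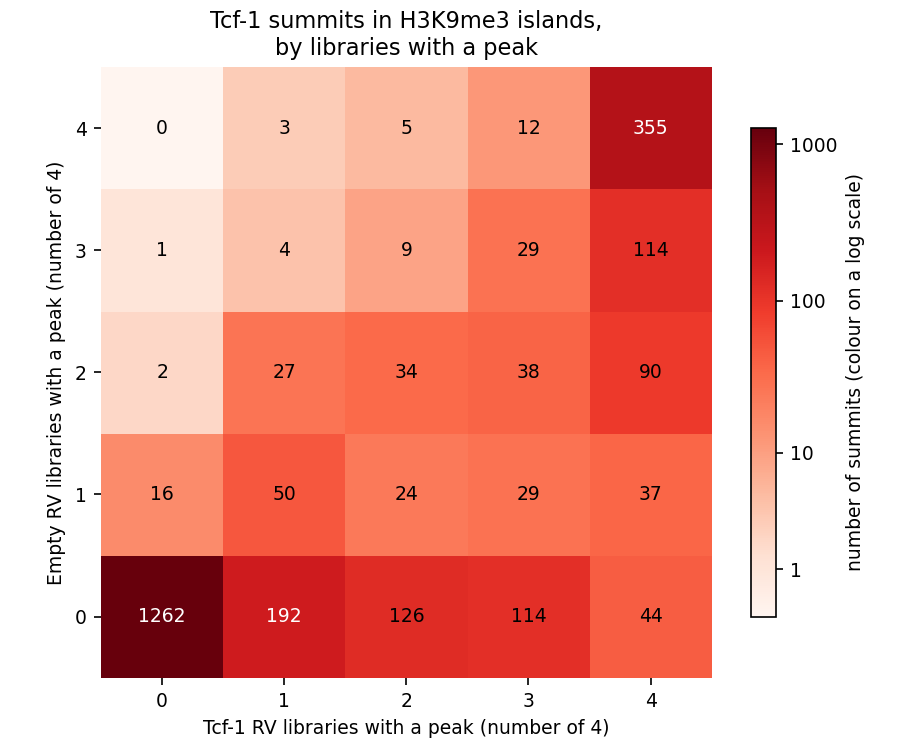
H3K9me3 summits by the number of Empty RV (vertical) and Tcf-1 RV (horizontal) libraries with a peak over them. Numbers are summits and the colour is on a log scale. The corner with no peak holds 1262, the corner with all 8 holds 355, and 44 lie at 4 Tcf-1 RV and no Empty RV libraries.

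The 44 gained summits had a median score of 54.1 (10.96 to 249.3). Of these, 10 lay inside genes, 21 within 50 kb of one and 13 farther away, and none lay within 1 kb of a gene end. Their peaks had median widths of 0.371, 0.402, 0.289 and 0.404 kb in Tcf-1 RV replicates 1 to 4. After the summit at chr12:8077515, the highest score with a gene nearby was 176.6 at chr1:43225852, 27509 bp from Fhl2, with peaks of 0.490, 0.459, 0.313 and 0.422 kb. Its islands had folds of 2.19 and 2.71. Inside Adamts2 (133.9, chr11:50700544) the 4 peaks were 0.695 to 0.792 kb wide, in islands of 742 ChIP and 1003 control reads in replicate 1 and 1006 and 930 in replicate 2, or folds of 2.2 and 2.35. Peaks were similarly wide near Cemip2 (122.96, 24198 bp away), with 0.545 to 0.895 kb. C3ar1, the receptor for complement C3a, had a gained summit 6876 bp away in islands of 3.93 and 4.63 fold, with nearly the score of that near Slc7a1, a transporter of cationic amino acids (125.4). Tut7, a terminal uridylyl transferase (118.8), and Scarb1, the receptor for high-density lipoprotein (94.3), also had one within 50 kb. Zfand3 (110.7) and Dennd1b (95.5) had one inside the gene. The growth factor gene Gdnf (85.7) and the dynein gene Dnah7a (85) completed those with the 15 highest scores, together with 4 sites, that at chr12:8077515 included, with no gene within 50 kb. The peak of Tcf-1 RV replicate 3 was the narrowest at most of these sites, and that of replicate 2 at Gdnf.

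The other genes were taken from lists by role, chosen with earlier results of these data known. An H3K9me3 summit was held by 5.33% of all protein-coding genes, and by 11.8% of the 9906 with any Tcf-1 summit. Gene length was not adjusted for in any list. Of 27 Wnt pathway and target genes, 8 (29.6%) held one, with 12 summits of median score 9.01, and 23 held any Tcf-1 summit. Among the secreted antagonists, Sfrp2 had a gained summit 25310 bp away (17.5), with Tcf-1 RV peaks of 0.430, 0.411, 0.259 and 0.544 kb and no Empty RV peak, in islands of only 1.19 and 1.60 fold. Sfrp1 (66.96, 32564 bp away) was open in no library. Of the factors that bind the same motif, Tcf7l2 held 3 summits. The one of score 23.2 was open in Empty RV replicates 3 and 4 and all Tcf-1 RV libraries, and the others, of 0.943 and 7.73, in none. Axin2, a feedback inhibitor of Wnt signalling, held 3 summits in 1 segment of 13.2 kb with folds of 2.30 and 2.03. None was open in fibroblasts. Those of score 16.3 and 10.5 lay 86 and 357 bp from a RefSeq transcription start, under a DP peak of 0.811 kb in both WT libraries. The KO libraries had peaks there too, of 0.392 and 0.631 kb at the first and 0.223 and 0.631 kb at the second.

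Of 24 fibroblast and matrix genes, 6 (25%, against 5.33%) held an H3K9me3 summit, with 13 summits of median score 20.2. All 24 held a Tcf-1 summit of some kind, and among all such protein-coding genes the share was 11.8%. Prrx1, a homeobox factor of mesenchyme, had 4 inside the gene within 1 segment (10.8 to 42.8). Apart from a peak of 0.214 kb in Empty RV replicate 2 at one of them, none was open. Near Col3a1 a second summit (151.6) was open in Tcf-1 RV replicates 1, 2 and 4 and in no Empty RV library. Col5a2, a chain of collagen V, had a gained summit 10774 bp inside its end (32.5), with peaks of 0.353, 0.338, 0.302 and 0.426 kb. Col6a1, a chain of collagen VI, had summits of 138.1 and 84.6, at 41395 and 34060 bp, that were open in no library. Of the 13 summits of this list, Prrx1 included, 4 (30.8%) were open in at least 1 fibroblast library, against 53.5% of all Tcf-1 summits.

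Of 23 T lineage transcription factors, 2 (8.7%, against 5.33%) held an H3K9me3 summit, and 15 held any Tcf-1 summit. The 2 were Ets2, described with the highest scores, and Runx1. Runx1, needed for blood and T cell formation, had 1 (53.6) in islands of 3.82 and 3.30 fold, open in Tcf-1 RV replicates 2, 3 and 4 with peaks of 0.277, 0.283 and 0.344 kb and in no Empty RV or DP library. None of 30 T cell receptor and DP thymocyte genes held an H3K9me3 summit and 11 held a Tcf-1 summit of any kind. With so few genes and the shares above, a count of 0 is not read as an absence. Adhesion and neuronal genes held one in 6 of 43 genes (14%, against 5.33%), and 21 held any Tcf-1 summit.

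Of 34 imprinted genes, 7 (20.6%, against 5.33%) held an H3K9me3 summit, and 14 held any Tcf-1 summit. Airn, the antisense transcript of the Igf2r domain, had 3, of which the strongest (82.1) was open in Tcf-1 RV replicates 1, 2 and 4, with peaks of 0.657, 0.416 and 0.656 kb, and in no Empty RV library. The summit shared by Gpr1 and Zdbf2 (185.9, chr1:63202011) had the same pattern, with peaks of 0.437, 0.470 and 0.420 kb, and folds of 3.88 and 3.84. The summit in Impact (10.8), in islands of 4.67 and 3.84 fold, was open in 2 libraries of Empty RV and 3 of Tcf-1 RV, and that near Rasgrf1 (16.9) in none. Both strong sites were thus closed in Tcf-1 RV replicate 3, the library with the shortest list of its arm.

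Zinc finger genes, whose clusters are known for H3K9me3, held one in 42 of 471 genes (8.92%, against 5.33% of protein-coding genes), with 58 summits of median score 17. Of the 58, 16 (27.6%, against 53.5% of all summits) were open in at least 1 fibroblast library and 6 in all 8 (against 15.1%). None was gained, near the background of 1.85%. Zfp660 had 4 summits, 1194 to 2994 bp inside an end of the gene, with scores of 122.4, 112.7, 100.8 and 80.1, and none was open in any library. Zfp53 had 3 (3.83 to 42.6), also closed throughout. Near Zbtb49 the summits of 137.7 and 130.2 behaved differently, the first with 0.281, 0.286, 0.249 and 0.286 kb in Tcf-1 RV and 1 Empty RV peak of 0.215 kb, the second open in all 8 libraries. In Zfp950, with folds of 4.42 and 4.47, the strongest of 3 (20.7) was open in Tcf-1 RV replicates 1 and 2. High Tcf-1 scores and closed chromatin thus occurred together at Zfp660. None of 57 clustered protocadherins held an H3K9me3 summit, and 32 held a Tcf-1 summit of any kind. Of the receptor families, 7 of 1110 olfactory genes (0.631%) and 9 of 355 vomeronasal genes (2.54%) held one, against 5.33% of all genes. Few of them held any Tcf-1 summit. Among those that did, it was 7 of 56 and 9 of 34, against 11.8% of protein-coding genes with any. The low shares of all genes are thus not read as a result about H3K9me3.

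The segment with the most summits lay among vomeronasal receptor genes. At chr6:89848801-89890800 (42 kb, folds of 3.34 and 3.31), beside Vmn1r43 and Vmn1r44, 10 summits of 1.06 to 63.4 lay as close as 511 bp. Of these, 5 were open in some fibroblast library and 2 in all 8, against 53.5% and 15.1% of all summits. The strongest, 1961 bp from Vmn1r43, had peaks of 0.312, 0.447, 0.425 and 0.492 kb in Empty RV and 0.457, 0.478, 0.516 and 0.542 kb in Tcf-1 RV. A gene-free segment at chr17:63672001-63742400 held 8, of which 3 were open in all 8 libraries. Its strongest (110.7) had peaks of 0.397 to 0.707 kb in Empty RV and 0.742 to 0.843 kb in Tcf-1 RV. A segment by Ap3s1 and Lvrn held 6, and those at chr1:92798801-92813200, by Gpc1, a heparan sulphate proteoglycan, and chr10:70374401-70415600, by Fam13c, held 5 each. No summit of these 5 segments was open in a DP library, as was the case for 97.4% of H3K9me3 summits and 92.4% of all summits. Within 1 segment, open and closed summits stood side by side.

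In DP thymocytes few of these sites were open. Of the 2617, 2550 (97.4%, against 92.4% of all summits) were open in no DP library, and 1242 (47.5%, against 45.6%) in none of the 12 libraries. The share was 2.14% and 2.48% in the WT libraries and 0.879% and 0.955% in the KO libraries. Unmarked summits were open at 6.67% and 8.04% in WT and 4.42% and 4.78% in KO. H3K27me3 summits were open at 1.77% and 2.38% in WT and 0.61% and 0.554% in KO, 0.1 to 0.401 points below H3K9me3 summits in the 4 libraries, a difference that was not tested. WT exceeded KO by 1.39 points without overlap (exact permutation p = 0.33, the smallest for 2 against 2, adjusted p = 0.400). The H3K9me3 summits were less often open than the unmarked, with a difference of -4.36 points (4 of 4 libraries, exact sign-flip p = 0.125, the smallest possible, adjusted p = 0.188), or -1.16 points away from gene ends. KO lists had 11171 and 12209 peaks against 23249 and 30985 in WT, and with the 11171 widest peaks of each library WT exceeded KO by 0.210 points.

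In both WT libraries 54 of the 2617 were open (2.06%, against 6.03% of all summits), with a median score of 11.4. A further 13 (0.497%, against 1.5%) were open in 1 WT library. Of the 54, 28 (1.07% of the H3K9me3 summits, against 1.64% of all) were open in neither KO library, 20 (0.764%, against 3.60%) in both, and 6 (0.229%, against 0.789%) in 1. No H3K9me3 summit was open in both KO and neither WT library, a pattern of 4 summits in the whole list (0.00986%). The lost share of those open in both WT libraries was 51.9% (28 of 54) for H3K9me3, 56.7% (17 of 30) for H3K27me3, 26.3% for unmarked and 27.3% for all summits. Gene ends move with it, since 17 of the 54 (31.5%) lay at one, against 63.4% of the unmarked. Away from gene ends it was 27 of 37 (73%, Wilson interval 57 to 84.6) against 454 of 865 of the unmarked (52.5%, 49.2 to 55.8). For H3K27me3 summits it was 17 of 29 there (58.6%, 40.7 to 74.5), an interval that overlaps both. These differences were not tested. With the 11171 widest peaks of each library the count of lost summits was 3.

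**Figure D5:**
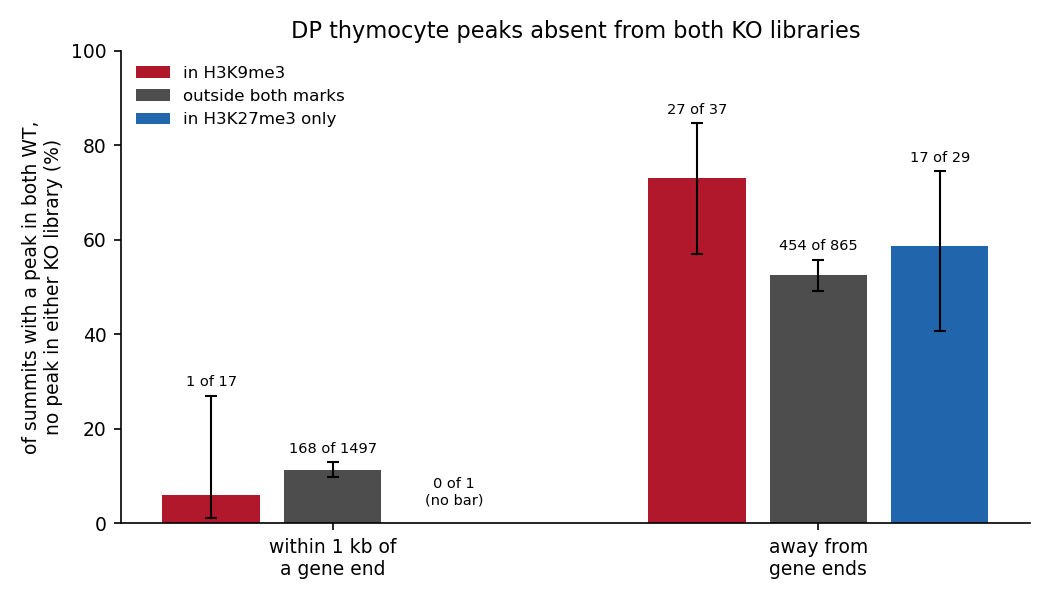
Of Tcf-1 summits with a peak in both DP WT libraries, the percentage with none in either KO library, by summit set and place. Bars start at 0, error bars are 95% Wilson intervals over summits, and counts stand above them. Away from gene ends the share is 27 of 37 for H3K9me3, 17 of 29 for H3K27me3 and 454 of 865 for unmarked summits.

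The strongest of the lost summits lay inside Stxbp5, which encodes tomosyn, a regulator of vesicle fusion (121.3). Its WT peaks were 0.229 and 0.297 kb and the KO libraries had none, while fibroblasts had 1 Empty RV peak of 0.230 kb and Tcf-1 RV peaks of 0.304 to 0.477 kb. Inside Slc39a11 a second summit (74.4) had WT peaks of 0.561 and 0.429 kb, no KO peak and a peak in all 8 fibroblast libraries. Some sites were open in DP WT thymocytes only, with no peak in KO or in fibroblasts. They included the summits by Cdkn1a, the cell cycle inhibitor p21 (40.7, WT peaks of 0.213 and 0.325 kb), inside Pde4b, a cyclic AMP phosphodiesterase (39.9, 0.319 and 0.420 kb), and inside Ext1, a heparan sulphate polymerase (32.5, 0.336 and 0.355 kb). Aff1, a subunit of elongation complexes (41.6, 0.391 and 0.355 kb), had 1 further peak, in Tcf-1 RV replicate 2. Lclat1 (46.4) and Hs1bp3 (40.01) were lost in KO and open in all 8 fibroblast libraries. The named lost sites thus held some that were shared with fibroblasts and some seen in thymocytes alone.

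Itpr2, an inositol trisphosphate receptor, held the 1 summit that was both gained in fibroblasts and lost in KO thymocytes (24.7, chr6:146481559). Its Tcf-1 RV peaks were 0.350, 0.280, 0.216 and 0.241 kb and its WT peaks 0.247 and 0.285 kb, with none in Empty RV or KO. The share of all summits with both patterns was not computed, so this count is not read as a result about H3K9me3 summits. Of the 54, 14 were open in no fibroblast library (0.535% of the H3K9me3 summits, against 0.491% of all) and 21 in all 8 (0.802%, against 3.57%). Another 8 (0.306%, against 0.281%) were open in Tcf-1 RV but not Empty RV fibroblasts. Of the 20 kept in KO, 12 lay at gene ends, and of the 28 lost, 1 did. Kept sites included Zfp775, Zfp868, Hspa2, a heat shock protein gene (11.4), and Psmd14, a proteasome subunit (15.8), all open in all 12 libraries.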

How the data were processed

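The submitters' processing notes list, with no roles, MACS2, Picard, STAR (2.5), Bowtie2 (2.2.9), Trim Galore and FastQC, and the builds GRCh37, GRCm38 and mm10. Coordinates are GRCm38, which mm10 also names. For each ATAC-seq library the authors deposited peak positions, with no height or depth. For Tcf-1 they deposited a single list pooled over replicates, in which every summit has a score of unstated scale. For the histone marks the authors deposited SICER islands, each with its count of ChIP reads and of control reads. Beside these counts stands the authors' ratio, the fold of ChIP over control after scaling. Each deposited island also has a p-value, raw and adjusted, and no adjusted one exceeds 0.00997. ATAC-seq depth is unknown.

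Tcf-1 summits were placed in islands of both replicates, and 293 peaks on unplaced sequences were left out. Genes came from a RefSeq table of 21888 genes (GRCm38.p6), and a gene end is either end of a protein-coding gene. Exact permutation tests (two-sided) compared the arms, and exact sign-flip permutation tests compared sets of summits within libraries, with p-values adjusted by Benjamini-Hochberg within each family. Single summits were tested with Fisher's exact test, adjusted over all 40562. Python 3.11.15, numpy 2.4.6, pandas 2.3.3, scipy 1.17.1 and matplotlib 3.10.9 were used, and the tests were tested on simulated data. The genes named were those with the most summits, the highest scores, gained summits, DP peaks and the members of the lists. The members and lists were chosen with earlier results of these data known, and the tests of bins after the files had been seen.

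NIH3T3 libraries of the same number deviated together (correlations of 0.133 to 0.291 over summits in the 4 pairs). Libraries of other number but the same day tag gave 0.00302 to 0.262, and across tags -0.352 to -0.037. The main tests between arms were unpaired, and pairing by number was run only as an alternative. Alternatives were a peak within 100 bp, stricter or looser islands, summits in both marks kept, summits of high score, 1 summit per 1 kb, each library left out, paired libraries, 1 day tag, equal numbers of the widest peaks and summits away from gene ends. Values of some adhesion and neuronal genes are not reported here.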

Additional observations from a re-analysis of the deposited data

How the results depend on the processing

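The number of libraries and the length of the peak lists limit these results, and no depth or peak height was at hand. The gap to unmarked summits was -3.36 points with the day 2 and -3.52 with the day 4 libraries alone, and the gap to H3K27me3 summits 20.9 and 25.1, where 4 libraries allow no exact p under 0.125. With equal numbers of widest peaks the difference between arms was 6.21 points (exact p = 0.0286). The change of the gap between arms, -0.373 points, turned to 0.219 with islands of at least 1 replicate, 0.296 on day 4 and 0.112 with equal numbers of peaks, and ranged from -0.569 to 0.0253 with each library left out. Gained summits made up 1.41% of the H3K9me3 summits with stricter islands (15 summits), 1.73% with islands of at least 1 replicate (76), 7.45% in paired libraries, 14.4% on day 2 and 2.87% on day 4 (75), and 1.68% to 5.62% with each library left out. Pairing or fewer libraries loosened the rule, so those shares could not fall below 1.68%. Summits lost in KO, 28 in the main setting, numbered 15 with stricter islands, 53 with islands of at least 1 replicate, 14 above the median score and 3 with equal numbers of peaks. The counts of 15, 53 and 14 come from sets of other sizes and do not by themselves show a changed share. The median score was 35.1 above the median of the list and 19.5 with 1 summit per 1 kb. Beyond these differences in rule and set size, the cause of the changes was not tested.

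Pairing the same-numbered NIH3T3 libraries (replicate block) gave the difference between arms, 13.3 points, an exact sign-flip p of 0.125, the smallest for 4 pairs, and changed the gained share as above. The differences between arms of the bins by score, segment length and edge distance also had p = 0.125 when paired. DP libraries share only a number (correlation -0.0469 over 47 summits), and with pairing the count lost in KO was 28 as before. Among the bins, chosen after the data were seen, the difference between arms by island fold was -2.05 points with equal numbers of peaks, the change with segment length was -0.0711 on day 4 and -0.415 to 0.781 with each library left out, and the gap at the highest scores was 0.801 with equal numbers of peaks. Calls of the highest against the lowest bin were lost under 2 alternatives by score, 3 by island fold and 2 by edge distance, and calls between arms under 4 by score and 7 each by segment length and edge distance. The gaps in the 4 score ranges lost their call under 2, 2, 2 and 8 alternatives, and the last also where its sign turned. All these counts include settings of 1 day tag or of pairs, which could not pass, with a smallest exact p of 0.125 or 0.33. In the first 3 score ranges the lost calls were those of the single day tags alone.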
